A study of Mus musculus with 15 samples.

Results

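Microglia that had bound a dye for amyloid (TG Me-X04+) were set against microglia of the same 5xFAD transgenic (TG) mice without dye signal (TG Me-X04−). The comparison used 10 of the 15 small RNA libraries of the series, 5 TG Me-X04+ and 5 TG Me-X04−. They were chosen by their labels, and libraries with the same replicate number came from 1 mouse, so each of 5 mice gave 1 pair. The 5xFAD mouse carries human amyloid precursor protein and presenilin transgenes with familial Alzheimer's disease mutations, driven by the neuronal Thy1 promoter, so that amyloid is made by neurons and met by microglia. All 10 libraries shared that genotype, a labelled age of 6 months, an injection of Methoxy-X04 (Me-X04, a dye that enters the brain and binds amyloid) and a sort on Cd11b and Cd45, to which the study's methods add CX3CR1. Only the dye signal of the sorted cells parted the groups, and the dye does not tell amyloid inside a cell from amyloid attached to it. The 5 remaining libraries, from wild-type (WT) mice with a labelled age of 2 months, were used only as levels beside some ratios.

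Microglia are the resident macrophages of the brain and take up amyloid. A miRNA is a short RNA cut from a hairpin precursor, which can release a mature strand from its 5′ arm (5p) and one from its 3′ arm (3p). Bases 2 to 8 of the mature strand, the seed, pair with target mRNAs, so miRNAs with 1 seed share many targets. In myeloid cells miR-155-5p is known as a promoter of inflammatory signalling and miR-146a-5p as a brake on it, while miR-142 and miR-223 are abundant myeloid miRNAs.

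The mature sequences on which the results turn are printed from RefSeq (GRCm38.p6), with the seed in capitals, to show which of them share a seed. The first pair shared a seed and moved apart, and miR-322-5p shared its seed with the far more abundant miR-16-5p. miR-146a-5p shared its seed with miR-146b-5p, and miR-351-5p shared its seed with miR-125b-5p. The rest were large changes.
miR-211-5p: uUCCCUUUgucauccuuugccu
miR-204-5p: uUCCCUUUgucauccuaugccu
miR-155-5p: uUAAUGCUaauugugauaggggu
miR-146a-5p: uGAGAACUgaauuccauggguu
miR-146b-5p: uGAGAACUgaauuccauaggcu
miR-322-5p: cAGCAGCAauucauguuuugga
miR-16-5p: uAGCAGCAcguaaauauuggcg
miR-351-5p: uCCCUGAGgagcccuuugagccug
miR-125b-5p: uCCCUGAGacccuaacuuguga
miR-455-3p: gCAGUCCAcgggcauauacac
miR-139-5p: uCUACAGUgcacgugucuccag
miR-30a-5p: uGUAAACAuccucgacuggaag
miR-26b-5p: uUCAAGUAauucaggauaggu
miR-223-3p: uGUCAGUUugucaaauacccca

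The libraries counted unique molecular identifiers (UMIs), which mark single RNA molecules. On miRNAs and piRNAs they held 405351 to 682553 UMIs in Me-X04− and 240027 to 372998 in Me-X04+. Every UMI count above 0 was at least 10, so an entry listed at 0 had 0 to 9 UMIs. miRNAs took 67.3% ± 6.39 of the UMIs on the listed miRNA, piRNA, tRNA and other RNA entries (SD, n = 5) in Me-X04+ and 75.3% ± 2.73 in Me-X04−, lower in 5 of 5 mice (two-sided exact permutation test over all arrangements of 5 and 5 libraries, adjusted p = 0.0476 over 6 composition values). The 10 most abundant miRNAs took 67.6% ± 6.78 and 74.3% ± 1.88 of miRNA UMIs, also lower in 5 of 5 mice (exact permutation test, adjusted p = 0.0476). Other RNAs took 29.7% ± 6.40 (SD, n = 5) and 21.5% ± 2.70, higher in 5 of 5 mice (exact permutation test, adjusted p = 0.0476). Me-X04+ replicate 3 stood apart, with 40.8% of its UMIs on other RNAs against 25.2% to 28.9% in the rest of its group. Without that mouse the difference in the miRNA share was -6.27 points (exact permutation test, adjusted p = 0.0571). Every Me-X04+ share (68.21% to 71.77%) then still lay below every Me-X04− share (74.85% to 78.05%). Leaving out any other mouse also ended the 4 calls among these shares. The lowest p that this test can reach is higher with fewer libraries, so a call lost in this way need not mean a smaller difference. Within pairs, an exact sign-flip test of 5 mice cannot go below 0.0625, and no composition value passed it (lowest adjusted p = 0.0938). As a share of all sequenced reads, miRNA reads were 7.39% to 13.6% in Me-X04+ and 16.95% to 25.17% in Me-X04−, and reads of other RNAs were 5.02% to 5.67% and 5.48% to 6.17%, both lower in 5 of 5 mice. Reads that could not be mapped were 19.47% to 24.43% and 11.03% to 18.82%, higher in Me-X04+ in 5 of 5 mice, and reads too short to use were 32.65% to 48.69% and 21.63% to 38.55%, higher in 4 of 5. The part of these read classes in the results was not tested.

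Levels were compared with the mouse as a block in edgeR's quasi-likelihood test, on libraries scaled by TMM, which sets the typical entry at no change. A call needed a log2 fold change (log2 FC) of 0.7 or more in size, with a Benjamini-Hochberg adjusted p under 0.05. Of 1298 miRNA and piRNA entries tested, 21 were higher in Me-X04+ (1.62% of the entries) and 131 were lower (10.1%). The sign held in 5 of 5 mice for 21 of the rises and for 127 of the falls, against 310 of all 1298 entries. The CPM ranges of the groups did not overlap for 14 of the 21 rises and 95 of the 131 falls, against 11.3% of all entries tested. The share of falls was larger among abundant entries. Of the 24 entries with a mean of at least 12 log2 CPM (CPM, TMM-scaled UMIs scaled to counts per 1e+06), 22 were called lower, with a median log2 FC of -1.35. Between 10 and 12 log2 CPM 22 of 28 entries were called lower, between 8 and 10 it was 42 of 80, and between 6 and 8 it was 43 of 546. Of the 620 entries with a mean under 6, 2 were called lower and the median log2 FC was 0.30.

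The direction of most of these falls depended on the scaling. The median log2 FC of all entries was 0.16 with TMM and 1.26 with plain library size, a shift of 1.09, and with library size 591 entries were called higher and 14 lower. Relative to their share of all miRNA and piRNA UMIs, 14 of the 131 falls were still called lower, 73 were lower and not called, and 44 were above 0 and not called. All 21 rises kept their call with TMM, DESeq2 size factors, library size and the total of all RNA classes, while 14 falls did. Library size and the total of all classes moved log2 FC upwards (medians 1.26 and 1.08, against 0.16 with TMM). These 2 scalings therefore put falls at risk and were no test of the rises. The 14 falls were miR-9-5p, miR-26b-5p, both strands of miR-30a, miR-139-5p, miR-146a-5p, miR-181a-1-3p, miR-223-3p, miR-322-5p, miR-351-5p, miR-455-3p, miR-503-3p and 2 piRNAs.

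**Figure D1:**
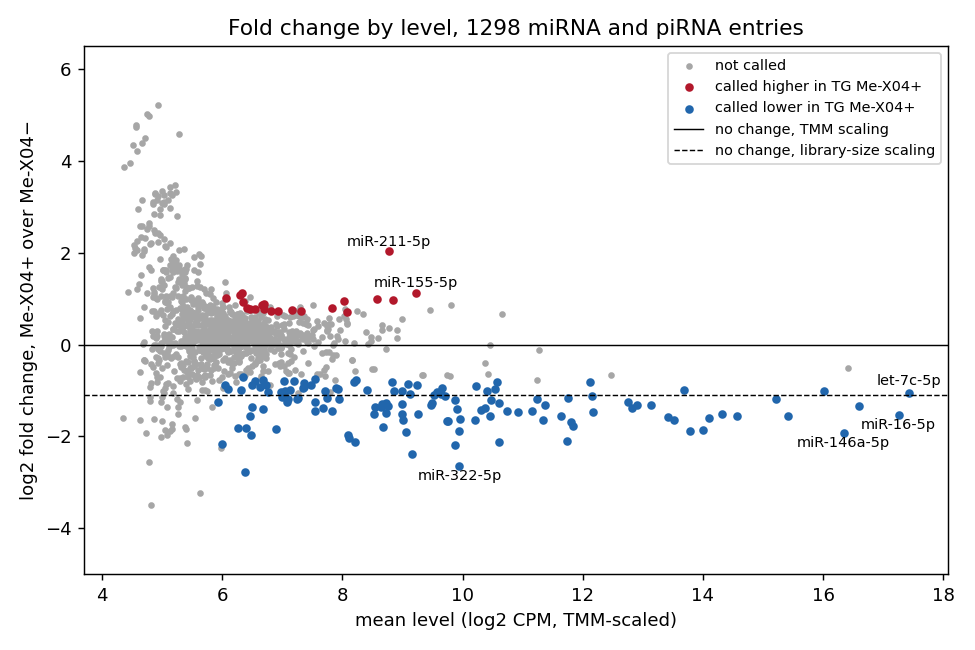
Fold change of each of 1298 miRNA and piRNA entries (y axis, log2, TMM-scaled, Me-X04+ over Me-X04−) against its mean level over the 10 libraries (x axis, log2 CPM). Points are entries, coloured where called, the solid line marks no change with TMM and the dashed line, at -1.10, marks no change with library size. The 131 falls (blue) take most points of the abundant end, and many sit close to the dashed line. The 21 rises (red) lie above both lines, as any point above the solid line must.

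miR-211-5p, made from an intron of the Trpm1 gene, had the largest rise among the called entries. It stood at 283, 275, 45.5, 133 and 171 CPM in the Me-X04− libraries of mice 1 to 5 and at 750, 888, 315, 611 and 847 CPM in their Me-X04+ libraries. Every Me-X04+ library was above every Me-X04− library. The log2 FC was 2.03 ± 0.22 (SE; edgeR adjusted p = 5.4e-04), with per-mouse log2 ratios of 1.40 to 2.75. Its seed partner miR-204-5p, made from a different locus on chromosome 19, stood at 121, 91.5, 52.7, 59.5 and 75.5 CPM in Me-X04− and 56.1, 54.7, 19.3, 48.9 and 40.5 CPM in Me-X04+. The ranges overlapped. It was lower in 5 of 5 mice with TMM (log2 FC -0.88 ± 0.23, edgeR adjusted p = 0.042), and the sign turned with library size (0.21, adjusted p = 0.63) and with the total of all classes (0.046, adjusted p = 0.913).

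miR-155-5p stood at 345, 484, 391, 255 and 317 CPM in Me-X04− and at 950, 1144, 392, 565 and 1090 CPM in Me-X04+. In 4 mice it was higher by 1.14 to 1.78 on the log2 scale. In mouse 3, whose Me-X04+ library stood apart in composition, the log2 ratio with TMM was 0.0029, so the groups overlapped. That ratio depended on the scaling, as the TMM factors of the mouse 3 libraries were 2.48 in Me-X04+ and 1.03 in Me-X04−. As a share of miRNA and piRNA UMIs, miR-155-5p was higher in Me-X04+ there too (264 of 272104, against 163 of 405351). The log2 FC was 1.13 ± 0.25 (edgeR adjusted p = 0.0211). Leaving out 1 mouse ended the call for mice 2, 4 and 5 (adjusted p = 0.0919, 0.082 and 0.0933), at log2 FC of 1.10, 1.13 and 0.96. Read counts in place of UMIs ended it as well (1.12, adjusted p = 0.0706).

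The other rises named by size had levels of 39.7 to 305 CPM in Me-X04− and log2 FC of 0.80 to 1.11. miR-704 was the most abundant of them, at 234, 250, 266, 420 and 354 CPM in Me-X04− and 831, 447, 729, 565 and 456 CPM in Me-X04+. The ranges did not overlap, and the log2 FC was 0.97 ± 0.24 (edgeR adjusted p = 0.0335). miR-290b-3p had a log2 FC of 1.00 ± 0.25 and per-mouse log2 ratios of 0.16 to 1.83, and mouse 1 and mouse 3 gave the largest ratios of both miRNAs. miR-350-5p stood at 173 ± 27.9 CPM in Me-X04− and 340 ± 76.1 in Me-X04+ (SD, n = 5), a log2 FC of 0.95 ± 0.18. miR-6917-5p and miR-6925-5p, at 47.8 ± 15.4 and 47.2 ± 8.22 CPM in Me-X04−, had log2 FC of 1.11 ± 0.20 and 1.08 ± 0.21. They rested on 13 to 34 and 14 to 28 UMIs in Me-X04− libraries, near the limit of 10 UMIs. miR-211-5p, miR-6917-5p and miR-6925-5p were the 3 rises that stayed called whichever mouse was left out, against 91 of the 131 falls. With read counts 10 of the 21 rises stayed called, and with a common detection floor 7 did. miR-6925-5p (log2 FC 0.96, edgeR adjusted p = 0.147), miR-704 (0.90, 0.11) and miR-290b-3p (0.95, 0.192) were among those that lost the call with read counts. Without mouse 3 or without mouse 5, 6 of the 21 rises stayed called in either case.

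**Figure D2:**
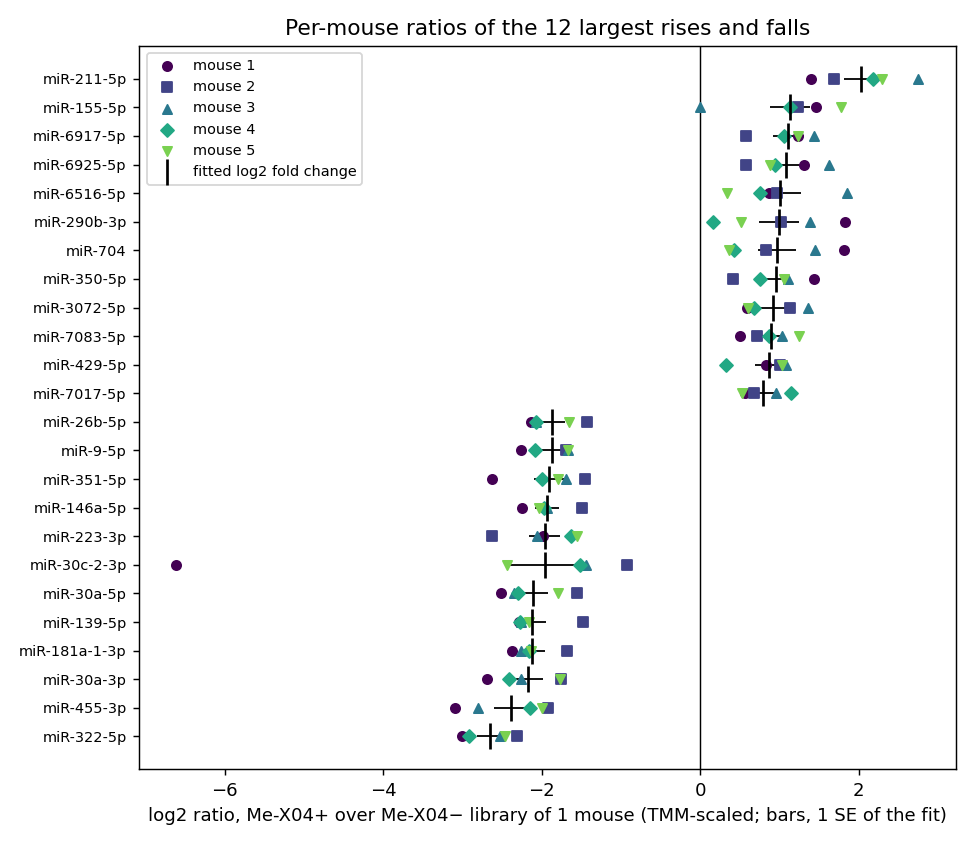
Log2 ratio of the Me-X04+ to the Me-X04− library of each mouse (x axis, TMM-scaled) for 24 called miRNAs that averaged 5 log2 CPM or more (y axis), the 12 that rose most and the 12 that fell most. Symbols are the 5 mice, vertical ticks the fitted log2 FC and horizontal bars 1 SE. Mouse 3 sits at 0.0029 for miR-155-5p, and mouse 1 sits at -6.61 for miR-30c-2-3p, whose Me-X04+ library was listed at 0 there.

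miR-322-5p had the largest fall among called miRNAs. It stood at 2597, 1454, 1028, 1993 and 1447 CPM in Me-X04− and at 322, 292, 178, 264 and 262 CPM in Me-X04+. The groups were far apart in 5 of 5 mice, with a log2 FC of -2.65 ± 0.17 (edgeR adjusted p = 2.7e-04) and of -1.54 with library size (adjusted p = 5.6e-04). miR-322-5p belongs to a run of miRNA genes on the minus strand of chromosome X, in which 10 mature miRNAs were tested between GRCm38 positions 53048008 and 53054327. Of these, 3 were called lower and 0 higher, against 10.1% and 1.62% of all entries, and the median log2 FC was -0.49.

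Within that run miR-351-5p, which has the seed of miR-125b-5p, stood at 1172, 775, 601, 822 and 831 CPM in Me-X04− and at 189, 283, 186, 205 and 238 CPM in Me-X04+. It fell without overlap, with a log2 FC of -1.90 ± 0.20 (edgeR adjusted p = 4.6e-04). miR-503-3p also fell, with a log2 FC of -1.82 ± 0.19, from 36 to 60 UMIs in Me-X04− libraries to 11 to 19 UMIs in Me-X04+ libraries. The opposite strand of the same hairpin, miR-503-5p, was not called (log2 FC -0.59 ± 0.22, edgeR adjusted p = 0.171), and its sign turned with library size (0.51) and with the total of all classes (0.34).

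miR-146a-5p was the most abundant of the 14 scaling-stable falls, at 177076, 114328, 83447, 138885 and 145255 CPM in Me-X04− and 37265, 40573, 21893, 35619 and 35453 CPM in Me-X04+. The highest Me-X04+ value was below the lowest Me-X04− value. The log2 FC was -1.93 ± 0.15 (edgeR adjusted p = 4.3e-04), and -0.83 with library size. Its near copy miR-146b-5p, from chromosome 19, fell with TMM (log2 FC -1.65 ± 0.17) and by less than the threshold with library size (-0.55, adjusted p = 0.00344). The 2 sequences share most of their bases, so reads could in part be assigned to either.

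The other scaling-stable falls held both strands of miR-30a, at log2 FC of -2.10 ± 0.19 for miR-30a-5p and -2.18 ± 0.19 for miR-30a-3p. miR-455-3p fell from 956 ± 361 to 185 ± 66.9 CPM (SD, n = 5; log2 FC -2.38 ± 0.22). miR-139-5p stood at 810, 248, 309, 536 and 488 CPM in Me-X04− and at 165, 88.2, 63.8, 110 and 109 CPM in Me-X04+. Its groups did not overlap, and the log2 FC was -2.12 ± 0.18 (edgeR adjusted p = 4.3e-04). miR-223-3p, a miRNA of granulocytes and monocytes, stood at 517, 478, 335, 267 and 546 CPM in Me-X04− and at 130, 76.0, 80.1, 85.5 and 185 CPM in Me-X04+. It also fell without overlap, with a log2 FC of -1.96 ± 0.19 (edgeR adjusted p = 4.6e-04). miR-26b-5p (-1.87 ± 0.16), miR-9-5p (-1.87 ± 0.16) and miR-181a-1-3p (-2.12 ± 0.16) fell in 5 of 5 mice. Among the piRNA entries 13 were called lower and 0 higher of 48 tested, against 10.1% and 1.62% of all entries. Of these piRNAs, only those in the list of scaling-stable falls kept the call under all 4 scalings. The largest piRNA falls rested on 18.5 ± 18.4 and 24.4 ± 19.8 CPM in Me-X04+, where some libraries were listed at 0. Both lost the call with library size (edgeR adjusted p = 0.116 and 0.183).

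Ratios of 2 miRNAs within a library do not depend on any scaling, and 6 were tested. The study had already reported miR-155-5p and miR-211-5p as higher and miR-146a-5p as lower in Me-X04+ microglia. Tests of ratios that hold these miRNAs are therefore not independent evidence of a change. The ratio of miR-155-5p to miR-146a-5p was 0.0255, 0.0282, 0.0179, 0.0159 and 0.0308 in Me-X04+ and 0.00196, 0.00424, 0.00470, 0.00185 and 0.00219 in Me-X04−. Every Me-X04+ ratio lay above every Me-X04− ratio, by 3.06 on average on the log2 scale (p = 0.00794 in a two-sided exact permutation test, which can go no lower with 5 against 5, and adjusted p = 0.0119 over 6 ratios). Mouse 3, in which miR-155-5p itself did not differ with TMM, had the smallest gap. In WT libraries the geometric mean of this ratio was 0.000767.

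The ratio of miR-211-5p to miR-204-5p was 13, 15.8, 15.7, 12.2 and 20.4 in Me-X04+ and 2.32, 2.98, 0.867, 2.21 and 2.25 in Me-X04−. The difference was 2.95 on the log2 scale, in 5 of 5 mice (exact permutation test, adjusted p = 0.0119). In WT, where miR-211-5p was listed at 0 in 2 libraries and at 10, 14 and 18 UMIs in the others, the order of these 2 seed partners was the opposite, with miR-204-5p above miR-211-5p in all 5 libraries.

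miR-322-5p fell against miR-16-5p, the dominant member with its seed, by 1.11 on the log2 scale, and miR-30a-5p fell by 0.63 against miR-30d-5p, a relative of it (both 5 of 5 mice, exact permutation test, adjusted p = 0.0119). miR-146a-5p fell against miR-146b-5p by 0.28 (5 of 5 mice, exact permutation test, adjusted p = 0.0286), a call that was lost without mouse 2, 3, 4 or 5. The ratio of miR-29a-3p to miR-29b-3p differed by -0.19, lower in 4 of 5 mice (exact permutation test, adjusted p = 0.238). With the mice paired, the sign-flip test cannot go below 0.0625, and the 5 ratios that passed had an adjusted p of 0.075 there.

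**Figure D3:**
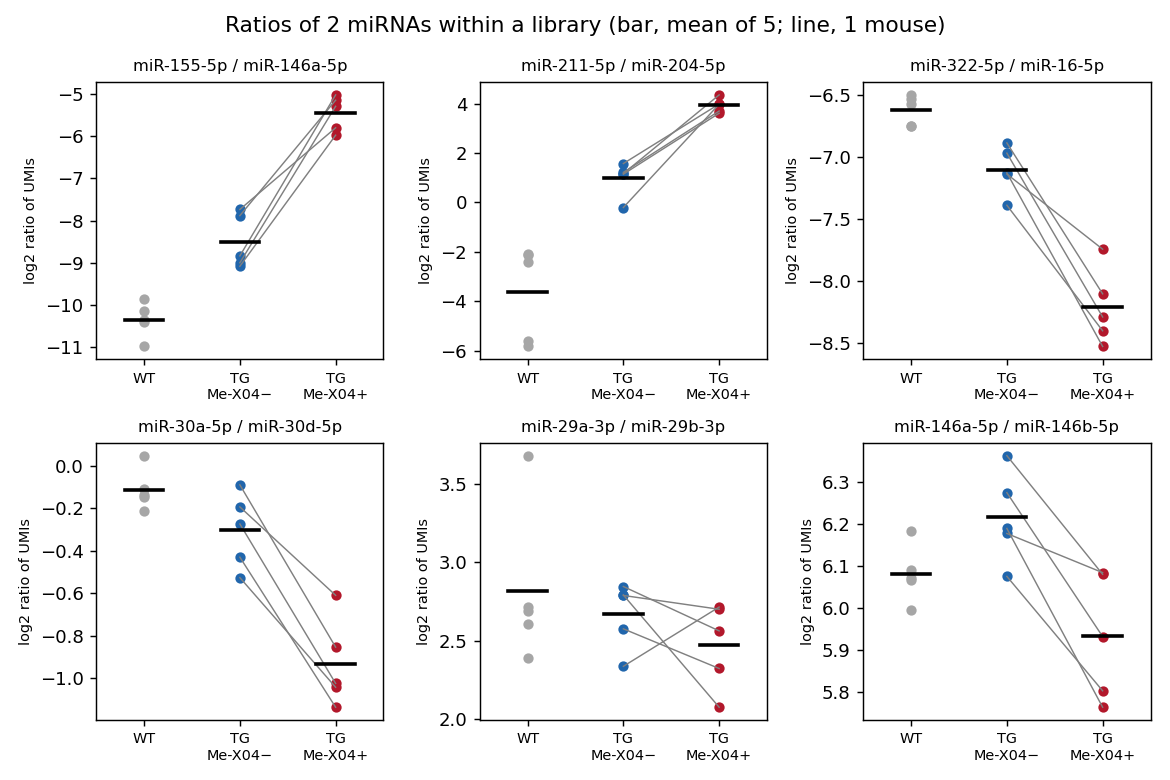
Log2 ratio of the UMIs of 2 miRNAs within each library (y axis, 1 panel a ratio) in WT, Me-X04− and Me-X04+ (x axis), with a point a library, a bar at the mean of 5 and a grey line for each TG mouse. The miR-155-5p and miR-211-5p panels rise in every mouse, by 3.06 and 2.95 on average, and the lines of the miR-29 panel cross.

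UMIs were also summed over all miRNAs with the same seed. Of 948 seeds tested, 90 (9.49%) were called, of which 11 were higher (1.16%) and 79 lower (8.33%) in Me-X04+. Without mouse 5 there were 1 and 54, and with library size 473 and 9. Among called seeds held by more than 1 miRNA, the sum of miR-204-5p, miR-211-5p and miR-7670-3p had the largest rise, from 286 to 753 CPM (log2 FC 1.47 ± 0.19, edgeR adjusted p = 0.00108). The CPM ranges of this sum overlapped, with a highest value of 449 in Me-X04− and a lowest of 333 in Me-X04+. miR-211-5p made up 86.7% of its UMIs over all TG libraries together, so the sum mostly followed its major member. In Me-X04− replicate 3 miR-211-5p held 19 of the 41 UMIs. The sum of miR-350-5p and miR-291b-3p rose by 0.74 ± 0.17.

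Summed seeds that fell with TMM and stayed below 0 with library size held miR-181a-1-3p and miR-181c-3p (log2 FC -2.07), miR-146a-5p and miR-146b-5p (144021 to 35543 CPM), and miR-30a-3p and miR-30e-3p (-1.94). The seed of miR-30a-5p, miR-30c-5p, miR-30e-5p and miR-384-5p fell by 1.91, from 11905 to 3139 CPM, and 3 of these 4 miRNAs were called lower on their own. The seed of miR-26a-5p and miR-26b-5p fell from 56240 to 16379 CPM, with both members called lower. RefSeq gave a sequence for 1582 of 1834 miRNAs, so a sum misses the members without one (miR-30d-5p among them).

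The 2 strands of a hairpin were set against each other as the log2 ratio of 5p to 3p UMIs, which also needs no scaling. Of 133 hairpins with at least 10 UMIs of each strand in every TG library, 38 (28.6%) changed their ratio, 21 (15.8%) towards 5p and 17 (12.8%) towards 3p (limma, variance pooled over hairpins, mouse as a block). With the variance of each hairpin alone 10 were called, and at 20 or more UMIs 17 of 42. miR-322 shifted towards 3p by 2.23 ± 0.34 and miR-351 by 2.05 ± 0.32 (limma adjusted p = 3.7e-09 and 5.3e-09), as their 5p strands fell while the 3p log2 FC were -0.39 and 0.16. With the variance of each hairpin alone the limma adjusted p were 0.0185 and 0.0332. Their 3p strands rested on 11 to 39 and 17 to 75 UMIs a library. miR-211 shifted towards 5p by 2.24 ± 0.29, and its 3p strand had a log2 FC of -0.15. miR-23a shifted towards 5p by 1.71 ± 0.19: the abundant 3p strand had a log2 FC of -1.68 and the rare 5p strand one of 0.03. miR-203 (1.64 ± 0.20) and miR-152 (1.55 ± 0.24) shifted towards 5p, and miR-26b (-1.67 ± 0.26, adjusted p = 0.0591 with its own variance) towards 3p. In 27 of the 38 called hairpins the less abundant strand gained, against 57.9% of all 133. Hairpins whose rarer strand fell below 10 UMIs in the shallower Me-X04+ libraries were not tested. Both shares may therefore lean towards gains of the rarer strand, and how far was not tested. miR-211 was among the 11 in which the more abundant strand gained.

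**Figure D4:**
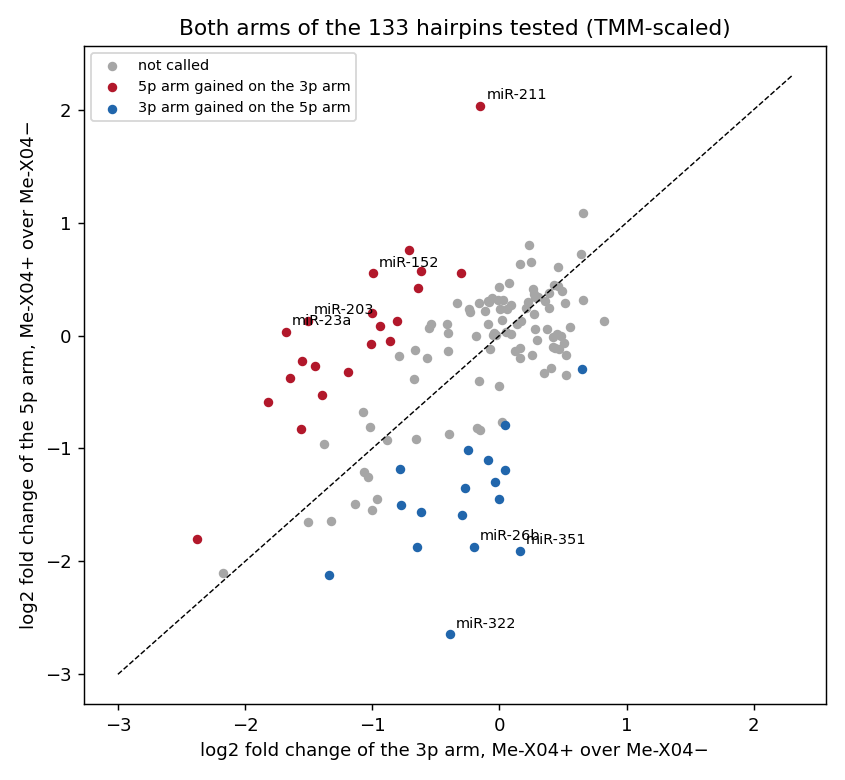
Log2 FC of the 5p strand (y axis) against that of the 3p strand (x axis), TMM-scaled, Me-X04+ over Me-X04−, for each of the 133 hairpins (points) tested. The dashed line marks equal change, red points gained 5p (21) and blue points gained 3p (17). miR-211 lies far above the line and miR-322 and miR-351 far below it.

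Known groups of miRNAs were described by their counts, against a median log2 FC of 0.16 over all entries with TMM and 1.26 with library size. With TMM 10.1% of all entries were called lower, but many members of these lists lie above 8 log2 CPM, and the share called lower was larger at higher level, at 42 of 80 between 8 and 10 log2 CPM and 22 of 24 from 12 upwards. The counts below were not adjusted for level. Of 5 myeloid miRNAs 4 were lower with TMM, with a list median equal to the change of miR-142a-3p (-0.40 with library size, 1 called lower): miR-142a-3p from 30231 to 10750 CPM, miR-142a-5p by 1.65 ± 0.16, miR-223-3p as above, and miR-21a-5p at -0.82 ± 0.19, whose sign turned with library size (0.29) and with the total of all classes (0.12). Of 14 miRNAs linked to inflammation, 1 (miR-155-5p) was higher and 7 lower, with a median of -0.76, which turned to 0.34 with library size. All 5 miR-30 members were lower (median -1.63, and -0.52 with library size). All 3 miR-29 members were lower with TMM (median -1.46, and -0.35 with library size), though miR-29c-3p turned to 0.24. Of 10 let-7 miRNAs, the most abundant family here, 7 were lower with TMM (median -1.04), and the median turned to 0.07 with library size. let-7i-5p was not called (log2 FC -0.50, edgeR adjusted p = 0.137) and turned to 0.61 with library size (adjusted p = 0.00122), under the fold threshold. Of 8 tested members of the miR-17/92 clusters 6 were lower (median -1.45, and -0.35 with library size). Their member miR-106b-5p was at 0.20 ± 0.21, and at 1.30 with library size (edgeR adjusted p = 0.00598). In the list of miR-26, miR-101, miR-103 and miR-107 strands 5 of 6 were lower (median -1.46, and -0.35 with library size), and of 5 members with the miR-15/16 seed 3 were lower (median -1.54, and -0.43). The miR-23/24/27 list had 3 of 5 lower (median -1.12, and -0.01 with library size). In 3 further lists the median turned above 0 with library size: miR-99a-5p, miR-125b-5p and their cluster partners (4 of 5 lower, -1.02 to 0.09), miR-181 (2 of 4, -0.74 to 0.36) and miR-148b-3p with its relatives (2 of 3, to 0.11). miR-210-3p, a miRNA induced by low oxygen, was not called with TMM (0.44 ± 0.25). With library size, where the median of all entries was 1.26, it was called higher (1.55, edgeR adjusted p = 0.00151). All 9 miRNA strands that the study selected, and the second strands of miR-140 and miR-532, were lower here with TMM (median of these 11 -1.38, and -0.28 with library size, 1 called), which is not independent evidence, since the 9 were selected on these samples.

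Markers of other cell types were looked at in the same way. In the lists for endothelial and mural cells (4 tested), erythroid cells (3) epithelial cells (4) and lymphocytes (1), 0 entries were called in either direction with TMM. The summed erythroid level was 157 to 235 CPM in Me-X04− and 98.1 to 227 in Me-X04+, and 2 of its 4 miRNAs were listed at 0 in some library. Of 7 neuronal markers, 5 of them between 6 and 8 log2 CPM, 4 were lower and 1 (miR-138-5p, 0.78 ± 0.21) higher, against 10.1% and 1.62% of all entries, and the summed level was 2051 to 4207 CPM in Me-X04− and 1061 to 1582 in Me-X04+. miR-9-5p and miR-128-3p (log2 FC -1.31 ± 0.17) held the most CPM in that list and lay in the band where 42 of 80 entries were called lower, and the neuronal marker miR-124-3p was not called (-0.94 ± 0.51). Of 3 oligodendrocyte markers 1, miR-338-3p, was lower (-1.25 ± 0.21), with a summed level of 273 to 610 CPM in Me-X04− and 258 to 371 in Me-X04+. Both neuronal and oligodendrocyte list medians turned above 0 with library size (0.32 and 0.80). The part of other cells in the falls was not tested, and fewer cells of a type and less RNA per cell cannot be told apart in these libraries.

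The sequences of called miRNAs were compared with those of all 1092 tested miRNAs that had one. The median GC content was 54.2% for 19 rises, 47.4% for 109 falls and 53.4% for all, and it was 45.5% for the 45 miRNAs with a mean of at least 10 log2 CPM. Among falls 56.0% began with U, against 39.8% of all and 66.7% of those 45 abundant miRNAs. Across these miRNAs, which share libraries and depth, log2 FC had a Spearman correlation of 0.11 with GC content and of -0.40 with mean level.

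tRNA entries, whose reads come from whole or cut tRNAs, held 5552 to 16438 UMIs a library. Of 130 tested, 9 were higher (6.92%) and 10 lower (7.69%) in Me-X04+. The mitochondrial tRNA mt-Ts2, for serine, had the largest called fall, at 274, 1796, 501, 615 and 725 UMIs in Me-X04− and 86, 196, 124, 158 and 153 UMIs in Me-X04+ (log2 FC -1.67 ± 0.18, edgeR adjusted p = 7.7e-07). mt-Tm, for methionine, fell too, by 1.23 ± 0.24, lower in 4 of 5 mice. Both kept the call under all 4 scalings, as did the glutamate tRNA copy Glu-CTC-1-5 (-1.02 ± 0.17). Gly-GCC-2-6 (-0.89 ± 0.20) was lower and lost its call with another scaling, and so did Lys-TTT-5-1, at 29 to 67 UMIs in Me-X04− and 0 to 24 in Me-X04+.

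Lysine tRNA copies with the TTT anticodon moved both ways. Lys-TTT-1-2 stood at 36, 48, 62, 45 and 37 UMIs in Me-X04− and 48, 44, 123, 74 and 77 in Me-X04+, a log2 FC of 1.18 ± 0.17 (edgeR adjusted p = 5.1e-05), and Lys-TTT-2-2 one of 0.99 ± 0.23. Gln-TTG-4-1 was listed at 0 in 4 of the 5 Me-X04− libraries and at 21 UMIs in replicate 3, against 39, 13, 45, 19 and 17 UMIs in Me-X04+, and as its fold rests on those zeros none is given. Ala-TGC-5-3 and Ser-AGA-2-3 were higher, at 56 UMIs or fewer in every library. Copies of 1 tRNA are nearly identical and their reads may be split between entries, and the number of rises fell from 9 to 2 without mouse 3 and to 3 without the pairing.

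The remaining RNAs parted by class. Of 422 tested, 56 were higher (13.3%) and 15 lower (3.55%) in Me-X04+. The falls held 14 small nucleolar RNAs (snoRNAs, which guide the modification and processing of ribosomal RNA) and 1 long non-coding RNA, C130071C03Rik. Of 135 snoRNAs tested, 127 had a negative log2 FC, 52 had an adjusted p under 0.05 with a negative change and 0 with a positive one. Over all 422 RNAs these counts were 222, 73 and 57. Their median log2 FC was -0.59 (-1.07 with library size), against -0.11 over all 422. The 44 spliceosomal and other small nuclear RNAs had a median of -0.40 and 0 calls. Among the rises were 18 of 85 lincRNAs and 19 of 69 antisense transcripts, with class medians of 1.24 and 1.31, and 0 snoRNAs. With library size the medians of these 2 classes were 0.77 and 0.83, and the balance of all calls turned to 25 higher and 118 lower. DESeq2 size factors gave 61 higher and 4 lower. Under all 4 scalings 25 of the 56 rises and 4 of the 15 falls stayed called.

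Snord17 had the largest called fall, at 6676, 6321, 4819, 6558 and 6834 CPM in Me-X04− and 2690, 1983, 2277, 2787 and 2937 CPM in Me-X04+ (log2 FC -1.30 ± 0.10, edgeR adjusted p = 3.2e-04). Every Me-X04+ library was below every Me-X04− library. Rnu3b3 (-1.20 ± 0.14) and Rnu3b4 (-0.85 ± 0.18), copies of the U3 snoRNA that acts in the cutting of the ribosomal RNA precursor, and Snord85 (-1.01 ± 0.09) fell in 5 of 5 mice. Copies of U3 are close in sequence, so their reads may be shared.

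Mir155hg, the host transcript of miR-155, had the largest called rise. It stood at 169, 278, 262, 119 and 186 CPM in Me-X04− and at 1220, 1555, 533, 958 and 1244 CPM in Me-X04+. Every Me-X04+ library was above every Me-X04− library, the smallest gap was in mouse 3, and the log2 FC was 2.42 ± 0.27 (edgeR adjusted p = 5.6e-04). The next rises were Gm26350 (2.25 ± 0.21), Pvt1 (1.96 ± 0.37), a long RNA next to Myc, AY512915 (1.84 ± 0.35) and Gm26793 (1.78 ± 0.45), at 10 to 139 UMIs a library. Of these, Gm26793 lost the call with library size (edgeR adjusted p = 0.0798). Fragments of 18S ribosomal RNA rose by 1.26 ± 0.13 on the log2 scale, and Neat1, a nuclear architectural RNA, by 1.24 ± 0.31 (both named after their values were seen). Under all 4 scalings 18S stayed called and Neat1 did not. The separate class of ribosomal RNA reads went the other way, lower in Me-X04+ in 4 of 5 mice. It took 0.06455% to 0.09974% of all reads in Me-X04+ and 0.09434% to 0.1158% in Me-X04−. How that class relates to the 18S entry was not tested. In Me-X04+ replicate 3, 18S held 19097 UMIs against 6424 to 10686 in the rest of its group. Without mouse 3 there were 39 rises and 6 falls, and 38 of the 56 rises and 5 of the 15 falls stayed called.

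**Figure D5:**
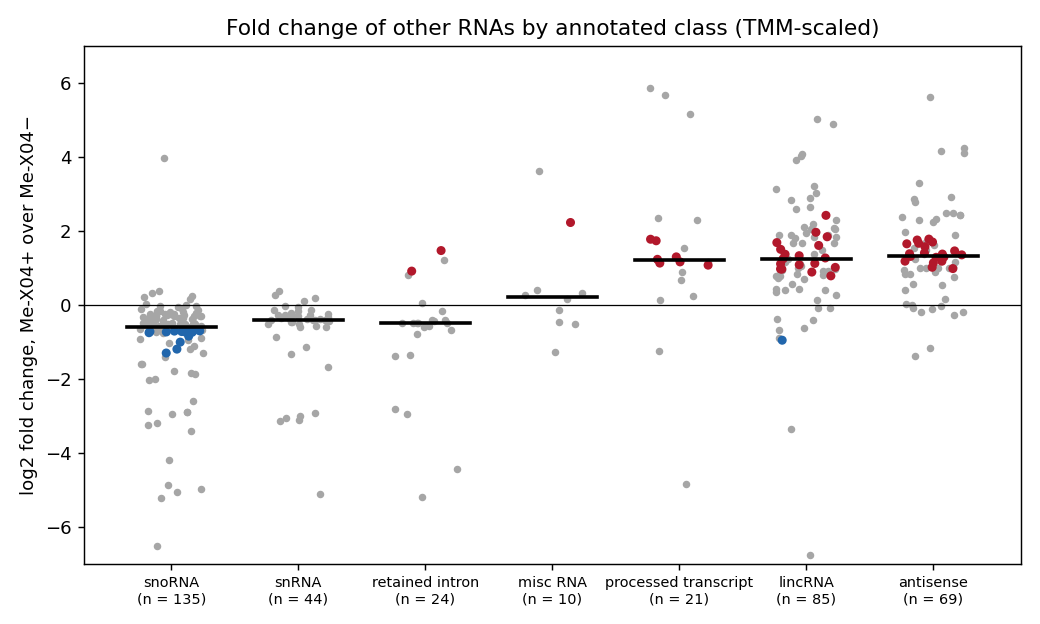
Log2 FC (y axis, TMM-scaled, Me-X04+ over Me-X04−) of the tested RNAs of 7 annotated classes (x axis, n in brackets), a point an RNA, spread sideways for clarity, with called rises in red, called falls in blue and the class median as a bar. snoRNAs centre at -0.59 with 14 called falls and 0 rises, while lincRNAs and antisense transcripts centre at 1.24 and 1.31.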

How the data were processed

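Small RNA libraries (QIAseq miRNA kit, UMIs) of sorted microglia had been assigned by the authors to miRNA, piRNA, tRNA and other RNA entries, and they deposited UMI counts and read counts per entry, not normalized. The submitters' notes name GRCm38 and edgeR 3.24.3, and reads were trimmed and mapped in Qiagen's Data Analysis Center, whose aligner is not given in the sources used here. The 10 TG libraries were fitted per table with edgeR 4.0.16 (R 4.3.3): filterByExpr, TMM, mouse plus dye group, quasi-likelihood F-test. SEs are those implied by the F statistic. The filter kept 1298 of 1994, 130 of 283 and 422 of 1347 entries. Arm ratios used limma 3.58.1. Ratios and shares used exact permutation and sign-flip tests. DESeq2 1.42.0, other scalings, filters, thresholds, read counts, no pairing and leaving out each mouse were alternatives. 2 were added after the data were seen (arm variance, abundant miRNAs of TG Me-X04− alone).

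Per-mouse ratios and ratios of 2 miRNAs add 0.5 UMIs. Named entries followed a rule: the 12 largest rises and falls among called miRNAs with a mean of at least 5 log2 CPM and 1 sign in 5 of 5 mice, 2 piRNAs each way, the 5 most abundant, those the study names, members of each list, and the 5 largest rises and falls of tRNAs and other RNAs. Members and lists were chosen with earlier results of these data known. Pairing comes from the labels, which give both libraries 1 mouse number, and the correlation between the 2 libraries of a mouse, after removing group means, was -0.15 to 0.31. Between a Me-X04− and a Me-X04+ library of different mice it was -0.31 to 0.24, a similar range. The fits were tested on simulated counts. For edgeR these held as many rises as falls, placed at random among entries. That test could not show how the scaling acts where falls gather among abundant entries. The labelled ages were used, though the study's methods give others. GENCODE vM21 named 1329 of 1361 transcripts.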

Additional observations from a re-analysis of the deposited data

Results flagged for a closer look

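In each group of 5 libraries, a value was looked at again where its gap to the nearest other library exceeded 0.71 of the group's range, which chance gives for about 1 in 20 groups and which was met in 21 of 206 groups. TG Me-X04+ replicate 3 was such a library for 12 values: miR-6516-5p (151 CPM, others 53.8 to 77.1), miR-3072-5p (162 CPM, others 73.6 to 94.3), miR-146a-5p (21893 CPM, others 35453 to 40573), miR-30c-5p (255 CPM, others 498 to 594), miR-15a-5p (255 CPM, others 423 to 480), miR-23a-3p (917 CPM, others 1805 to 2035), Lys-TTT-2-2 (11371 CPM, others 2920 to 3588), Gm26350 (1256 CPM, others 414 to 655), AY512915 (759 CPM, others 177 to 261), Gm26793 (651 CPM, others 120 to 254), and the shares of UMIs on miRNAs (56.1%, others 68.2% to 71.8%) and on other RNAs (40.8%, others 25.2% to 28.9%). These CPM are TMM-scaled, and the TMM factor of this library was the highest of its group for miRNAs and piRNAs (2.48, others 1.14 to 1.61). For other RNAs its factor was the lowest (0.57, others 0.87 to 1.04). The part of these factors in the CPM values was not tested.

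TG Me-X04− replicate 3, from the same mouse, was apart for Gln-TTG-4-1 (2326 CPM, others 0), for Snord17 (4819 CPM, others 6321 to 6834) and for the ratio of miR-211-5p to miR-204-5p (log2 -0.21, others 1.14 to 1.57). TG Me-X04− replicate 1 was high for miR-21a-5p (8704 CPM, others 4290 to 5399), for miR-503-5p (162 CPM, others 113 to 119), for miR-30a-3p (2697 CPM, others 918 to 1415) and for the seed sum of miR-30a-3p and miR-30e-3p (4109 CPM, others 1409 to 2151). TG Me-X04− replicate 2 was high for the tRNA share of UMIs (1.84%, others at most 1.58%). TG Me-X04+ replicate 1 was listed at 0 for Lys-TTT-5-1 (others 2044 to 2651 CPM).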

How the results depend on the processing

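With other scalings the 21 rises and 131 falls of miRNAs and piRNAs became 605 calls with library size (591 higher, 14 lower) and 546 with the total of all classes (522 and 24). A common detection floor (the share that 10 UMIs make in the shallowest library) left 93 calls. With DESeq2 as the test 7 rises and 116 falls stayed called. Without the replicate block 143 were called, 136 of them shared. Counts ranged from 105 to 130 when a mouse was left out. tRNA calls went from 19 to 10 with the common floor, 12 with read counts, 11 without the replicate block, 8 at an absolute log2 FC of at least 1, and 10 to 17 without 1 mouse. Other RNA calls went from 71 to 143 with library size, 117 with DESeq2, 23 with the common floor, 130 by adjusted p alone, and 45 to 78 without 1 mouse. Seed calls went from 90 to 482 with library size and 55 to 82 without 1 mouse. Arm calls went from 38 to 17 at 20 or more UMIs, 10 with each variance alone, and 28 to 39 without 1 mouse.

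With the replicate block (sign flips) the 5 called ratios kept 3.06, 2.95, -1.11, -0.63 and -0.28 at an adjusted p of 0.075, and the shares kept -7.96 (miRNA), -0.23 (piRNA), 8.15 (other RNA) and -6.76 points (10 most abundant) at 0.0938. Read counts ended the call for miR-146a-5p to miR-146b-5p (-0.33), the piRNA share (-0.16) and the 10 most abundant (-7.63). Without 1 mouse these ranged from -0.33 to -0.25, -0.26 to -0.19 and -8.02 to -4.68, the miRNA share from -9.18 to -6.27, the other RNA share from 6.48 to 9.34, and the tRNA share from -0.0017, without mouse 5, to 0.0875. Signs turned with library size for let-7c-5p (0.053), let-7i-5p (0.61), miR-140-5p (0.14), miR-204-5p (0.21), miR-29c-3p (0.24), miR-503-5p (0.51) and miR-21a-5p (0.29), and with the total of all classes for let-7i-5p (0.44), miR-204-5p (0.046), miR-29c-3p (0.073), miR-503-5p (0.34) and miR-21a-5p (0.12). Of 1368 checks of 97 named entries and seeds, 1143 kept direction and call, 211 lost the call, 2 gained it and 12 reversed. The cause was not tested. The 10-UMI limit hides low values.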
